A study of Rattus norvegicus with 12 samples.

Results

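Gentamicin and amphotericin B were present in 2 of the 5 sequenced cultures of SIRMu-1, and the RNA of those 2 cultures was compared with that of the 3 grown without the drugs. SIRMu-1 is a line of rat Müller cells, the main glia of the retina, that became immortal with no gene introduced. The 5 libraries, picked by the drugs named in each sample's growth protocol, were 5 of 12 in the series. The other 7 were 4 of primary Müller cell cultures, all kept with both drugs, and 3 of the rMC-1 line, kept with neither.

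All 5 SIRMu-1 cultures traced back to Sprague-Dawley rats of postnatal day 2-4 and grew in MEM. To this medium the cultures received 20% fetal bovine serum, L-glutamine at 2 mM, and glucose at 25 mM. The medium of replicates 3 (passage 11) and 5 (passage 20) also held gentamicin at 87 mg/L together with amphotericin B at 2.2 mg/L. Replicates 1 (passage 6), 2 (passage 11) and 4 (passage 11) had neither. The drugs were always given together, so their separate contributions cannot be told apart. The arms also differed in passage, and the labels do not say how long the cells were exposed. Every SIRMu-1 library is a culture of 1 line, and the labels call the samples biological replicates without naming separate derivations. The p-values therefore do not reach beyond these cultures of the line. The spread behind the edgeR tests was pooled within 4 groups over all 12 libraries, primary and rMC-1 cultures included. The names of the deposited libraries carry a code, 4 for replicates 1 to 3 and 10 for replicates 4 and 5, whose meaning is not given.

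Gentamicin is an aminoglycoside that binds the bacterial ribosome. In animal cells it enters by endocytosis, in kidney and inner ear largely through the receptors megalin (Lrp2) and cubilin (Cubn), and collects in lysosomes, where it can disturb phospholipid breakdown. Amphotericin B is a polyene that binds ergosterol of fungal membranes and, with lower affinity, cholesterol of animal membranes. Cells that sense a shortage of accessible membrane cholesterol release the transcription factor SREBP-2 from the endoplasmic reticulum, which raises the genes of cholesterol synthesis and uptake. Cells with stressed lysosomes can move TFEB to the nucleus, which raises lysosomal and autophagy genes. The lists below follow these routes: uptake, lysosome, sterols, then stress programmes.

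Reads assigned to genes numbered 26349346 to 36730443 per SIRMu-1 library. Levels are given as CPM, the reads of a gene relative to the TMM-scaled library total, in the order of replicates 1, 2 and 4 (no drugs), then 3 and 5 (drugs). Markers gave a mixed check of the label, with genes of fibroblasts and contractile cells high. Vim, an intermediate filament gene of Müller glia, stood at 2847 to 3985 CPM in the 5 libraries, while Sox2, Aqp4, Kcnj10 and Car2, which Müller glia of the retina normally express, were at 0 reads in all 5. The 21 Müller glia markers, led by Vim, summed to 4871 to 5153 CPM with drugs and 3804 to 5184 without. The 16 fibroblast and matrix genes, led by Col1a1, summed to 115200 to 143000 CPM with drugs and 122700 to 181700 without. The 11 pericyte and smooth muscle markers, led by Acta2, summed to 6345 to 14870 CPM with drugs and 12870 to 15710 without. Of 12 microglia and macrophage markers 7 were at 0 in all 5 libraries, and the list summed to 0.825 to 1.94 CPM with drugs and 1.22 to 4.34 without. In bulk RNA, fewer cells of a type and less RNA per cell cannot be told apart.

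No gene passed the test between cultures with and without the drugs. Of 11321 genes tested, 0 had an edgeR adjusted p under 0.05 (0%), and the lowest adjusted p was 0.977. An unadjusted p under 0.05 was reached by 433 genes, 286 of them higher with drugs (2.53% of the genes tested) and 147 lower (1.3%). That split depended on the fit: it was 377 higher and 79 lower when scaled by library totals, 178 and 155 with the name code as a term, 735 and 746 without replicate 3, and 41 and 33 without replicate 5. DESeq2, fitted to the same counts, called 4 genes: Gpnmb, Lhfpl2 and Snai1 as higher and Snap47 as lower. The median of all log2 fold changes was 0, and the median of their absolute values was 0.19.

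The intervals give the sizes of effect that the comparison can and cannot bound, with the spread pooled over all 12 libraries. For 7008 of 11321 genes (61.9%) the 95% interval of the fold change lay within 2-fold in both directions. In a fit of the 5 SIRMu-1 libraries alone this held for 6993 of 9765 genes (71.6%), and for 5809 (59.5%) with passage as a number. A 2-fold rise lay outside the interval of 8103 genes and a 2-fold fall outside that of 8330. At a tighter bound of 0.5 on the log2 scale, a fold of about 1.41, 2543 genes (22.5%) were held. The level of a gene set the width. Among 2102 genes with a mean log2 CPM of 1 or less, the median half-width was 2.15 on the log2 scale and 2.05% were held within 2-fold. Among 3520 genes between 5 and 7 it was 0.40, a fold of 1.32, and 84.6% were held. For genes above 7 the share was 82.8%, so intervals were no narrower above that level. These bounds apply to the difference between these arms, passage included.

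**Figure D1:**
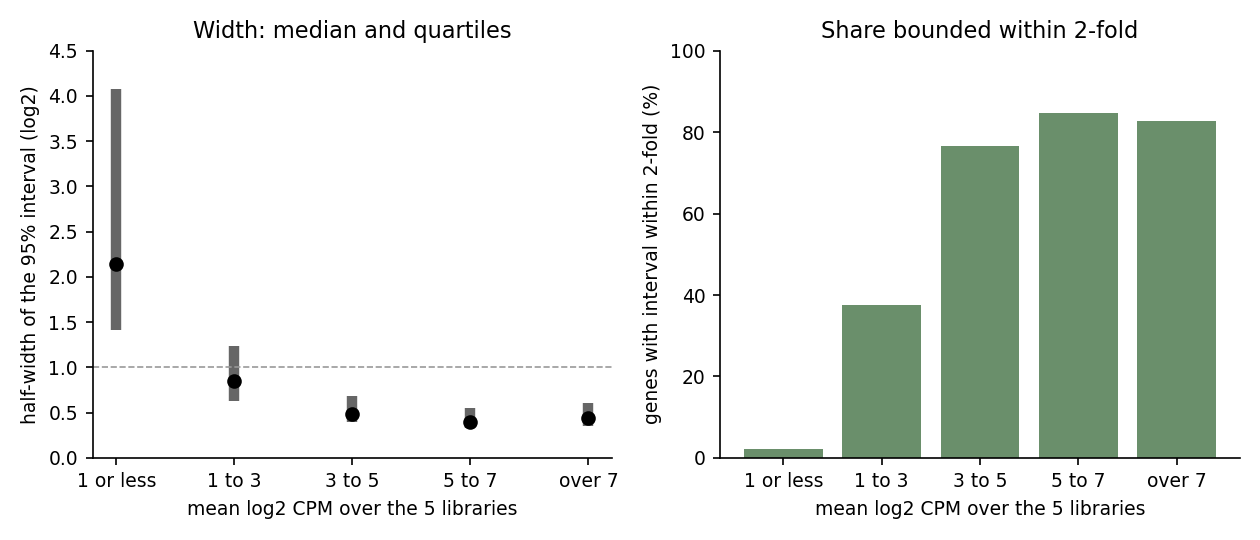
Width of the 95% interval of the log2 fold change (left, half-width; points are medians and bars span the quartiles) and percent of genes whose interval lies within 2-fold (right), by mean log2 CPM over the 5 SIRMu-1 libraries. The median half-width falls from 2.15 in the lowest class to 0.40 at 5 to 7, where 84.6% of genes are bounded.

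Among the routes of drug uptake, megalin RNA was abundant and varied widely. Lrp2 stood at 1099, 1556 and 322 CPM without drugs and at 764 and 117 with them. The arms overlapped, and the lowest value belonged to the culture at passage 20. Its log2 fold change was -1.17 ± 0.87 (SE), with an interval from -3.09 to 0.75, so neither a large fall nor a modest rise lay outside it. Cubn was low in all libraries, at 1.10, 1.01 and 1.42 CPM without drugs and 1.82 and 1.01 with. Lrpap1, the chaperone of megalin, was held tightly, at 194, 209 and 190 CPM against 209 and 175, a log2 fold change of -0.04 with an interval from -0.32 to 0.24. Dab2, an adaptor for endocytosis of these receptors, stood at 60.3, 71.7 and 36.0 CPM without drugs and 43.1 and 125 with. None of the 7 tested genes of this list reached an unadjusted p under 0.05, and 2 of them were bounded within 2-fold.

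Most lysosomal genes had fold changes bounded within 2-fold between the arms. Of 106 tested genes on 4 lysosome lists, 87 (82.1%) had intervals within 2-fold, against 61.9% of all genes. Lysosomal genes are well expressed, and among genes with a mean log2 CPM above 3 the shares were closer, 83 of 95 (87.4%) against 81.4%. At the tighter bound of 0.5 on the log2 scale, the share above that level was 28.4% for lysosomal genes and 31.7% for all. The median log2 fold change was 0.00 for 39 hydrolases and their activators, 0.09 for 24 membrane and transport genes, -0.07 for 17 genes of the vacuolar proton pump that acidifies the lysosome, and 0.08 for 26 genes of autophagy and the TFEB pathway. On the proton pump list 16 of 17 genes were bounded, and the pump's Atp6v0c, Atp6ap1 and Atp6v1g1 had log2 fold changes of -0.13, -0.06 and -0.05. In a fit of the 5 SIRMu-1 libraries alone, 33 of 36 hydrolase and 18 of 23 membrane genes were bounded. So were 15 of 17 pump and 20 of 25 autophagy genes. With passage as a number in that fit the 4 counts were 25, 17, 14 and 16.

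Lamp1, a main glycoprotein of the lysosomal membrane, stood at 523, 489 and 459 CPM without drugs and 519 and 545 with. The values of the arms interleaved, and the log2 fold change was 0.12 ± 0.14 with an interval from -0.19 to 0.43. The protease gene Ctsd stood at 313, 486 and 247 CPM without drugs and 372 and 272 with, a log2 fold change of -0.11 ± 0.25. Another protease gene, Ctsb, stood at 524, 364 and 603 CPM against 631 and 369, and its log2 fold change was 0.01 ± 0.31. Psap, the precursor of the saposins that help degrade sphingolipids, had a log2 fold change of -0.03 with an interval from -0.45 to 0.39. Sqstm1, the autophagy receptor p62 and a TFEB target, stood at 468, 491 and 421 CPM against 498 and 468. For Lamp1, Ctsd, Ctsb, Psap and Sqstm1 a 2-fold change in either direction lay outside the interval.

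TFEB binds the CLEAR box, whose core TCACGTGA reads the same on both strands. The 2 promoter stretches below are those of the lysosomal genes named above that carry it, read from RefSeq promoter sequences of build GRCr8, with the box in capitals and everything printed lying before the gene's start.
Lamp1: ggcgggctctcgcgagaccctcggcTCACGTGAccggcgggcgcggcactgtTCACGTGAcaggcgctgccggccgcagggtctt
Ctsd: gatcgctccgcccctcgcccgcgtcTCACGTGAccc
The Lamp1 stretch is chr16:83075070-83075154 on the minus strand, with boxes 66 to 59 and 39 to 32 bases before the start. The Ctsd stretch is chr1:206968822-206968857 on the minus strand, with its box 11 to 4 bases before the start. Within 250 bases before the start, the core was present in 2 of 29 hydrolase promoters (6.9%), 3 of 22 membrane gene promoters (13.6%), 1 of 13 proton pump promoters (7.69%), 0 of 21 promoters of the autophagy and TFEB list and 1.4% of the promoters of all tested genes that had a sequence. The letters describe the windows and say nothing of binding in these cells.

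Of the 106 genes on the 4 lists, 5 were higher and 1 lower at an unadjusted p under 0.05, against 2.53% and 1.3% of all genes. The one of lowest p was Gpnmb, a membrane glycoprotein of lysosomes and melanosomes that TFEB and its relative MITF can raise. It stood at 17.8, 9.63 and 20.3 CPM without drugs and 37.6 and 78.8 with. Both drug values lay above all 3 others. Its log2 fold change of 1.87 ± 0.35, with an interval from 1.10 to 2.65, had the lowest unadjusted edgeR p of all genes named by p (0.000249), but its adjusted p was 0.977. DESeq2 gave an adjusted p of 0.00501. Against their partners, replicate 3 exceeded replicate 2 by 1.96 and replicate 5 exceeded replicate 4 by 1.96 on the log2 scale, although replicate 3 exceeded replicate 4 by 0.89. Without replicate 5 the log2 fold change was 1.23. Gpnmb in the primary cultures, which also grew with the drugs but are other cells, was 301 to 457 CPM. In the rMC-1 cultures, grown without drugs, it was 12.65 to 17.28 CPM. Hmgcs1 and Cyp51 had the opposite order in these other cells, as given below. Flcn and Fnip1, partners in amino acid signalling at the lysosome, also had an unadjusted p under 0.05, with log2 fold changes of 0.96 ± 0.31 and 0.70 ± 0.29. Both were highest in replicate 5, where Flcn reached 55.5 CPM against 26.8 in replicate 3 and 15.8 to 24.5 without drugs. Scarb2 and Laptm4b, both of the lysosomal membrane, had log2 fold changes of 0.51 ± 0.23 and 0.48 ± 0.19, and replicate 4 equalled replicate 3 in Laptm4b, at 71.1 and 71.0 CPM. The lower gene was Pla2g15, a lysosomal phospholipase, at 25.6, 21.96 and 23.6 CPM without drugs and 18.8 and 18.0 with, a log2 fold change of -0.37 ± 0.14. Gpnmb was named for its low p, so its order and pair ratios in these libraries are no separate support. The other genes here were picked out after their values were seen, as are the list members described below by an unadjusted p under 0.05.

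**Figure D2:**
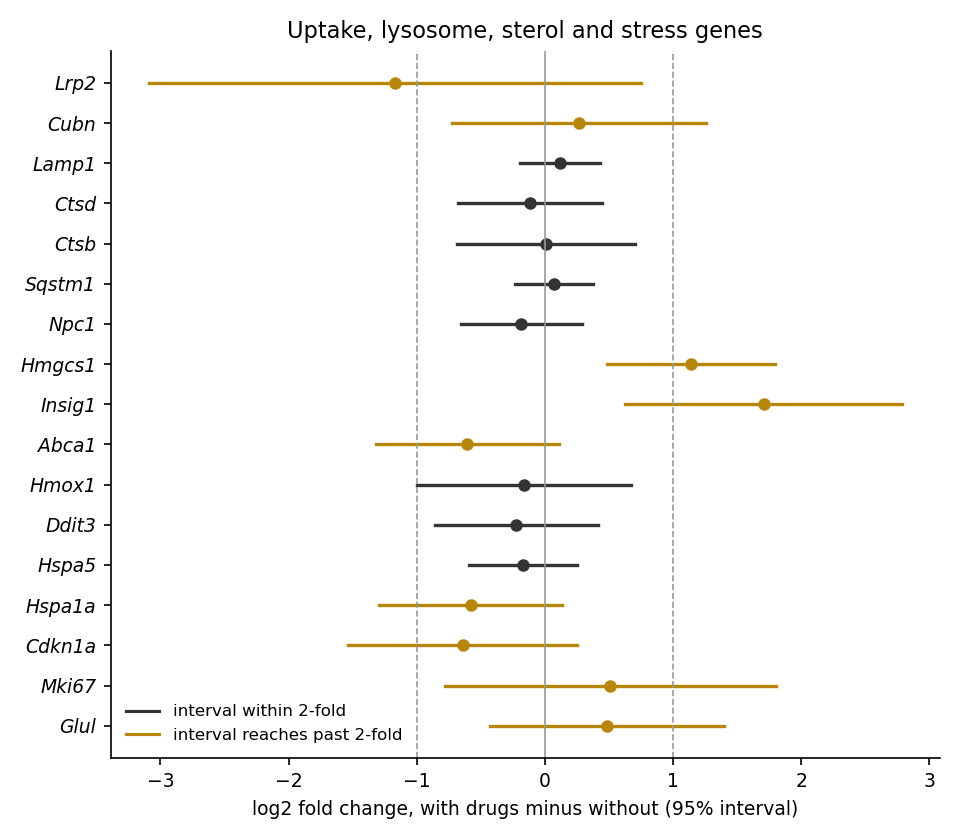
Log2 fold change with its 95% interval for set genes of uptake, lysosomes, sterols, stress and cell state, cultures with drugs (n = 2) minus without (n = 3). Dashed lines mark a 2-fold change. The intervals of Lamp1, Ctsd, Ctsb, Sqstm1, Npc1, Hmox1, Ddit3 and Hspa5 lie between them, and those of Hmgcs1 and Insig1 lie above 0.

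Genes of cholesterol synthesis had higher values in the drug arm, with none passing the test. The median log2 fold change of the 22 genes was 0.90, all 22 were above 0, and 16 had an unadjusted edgeR p under 0.05, against 2.53% of all genes. In 11 of them both drug libraries exceeded the 3 others, as in 8.72% of all genes (7.26% lay entirely lower). Only 5 of the 22 were bounded within 2-fold. A 2-fold fall, however, lay outside the interval of all 22.

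Hmgcs1, which makes HMG-CoA early in the pathway, stood at 101, 113 and 178 CPM without drugs and 221 and 353 with. Its log2 fold change was 1.14 ± 0.30, with an interval from 0.48 to 1.79. Its values formed a ladder, with replicates 1 and 2 lowest, replicates 4 and 3 next and replicate 5 highest. Fdps, which makes farnesyl diphosphate, followed it with 158, 198 and 275 CPM against 297 and 512. So did Cyp51, the lanosterol demethylase, with 118, 137 and 206 CPM against 214 and 464, and Sqle, the squalene epoxidase, with 41.4, 41.7 and 83.6 against 92.0 and 159. In the primary cultures, other cells kept with the drugs, Hmgcs1 was 84.8 to 134 CPM and Cyp51 93.9 to 129. In the drug-free rMC-1 cultures Hmgcs1 was 376 to 556 CPM and Cyp51 614 to 693.

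The displacement did not separate the drug states evenly. Replicate 5 was the highest library for 21 of the 22 synthesis genes. Replicate 4, grown without drugs, exceeded both other drug-free cultures for 20 of them, and replicate 3 exceeded replicate 4 for 13. The median log2 ratio over the list was 0.91 for replicate 5 against replicate 4, 0.51 for replicate 3 against replicate 2 and 0.65 against replicate 1, but 0.08 for replicate 3 against replicate 4. Without replicate 5 the median fold change was 0.39 and 1 of 22 genes had an unadjusted p under 0.05. With passage as a number in the fit of the 5 libraries the median was 0.27 and again 1 gene did. Replicate 5, the culture at passage 20, thus carried the larger part of the difference, and in it drugs and passage cannot be told apart.

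**Figure D3:**
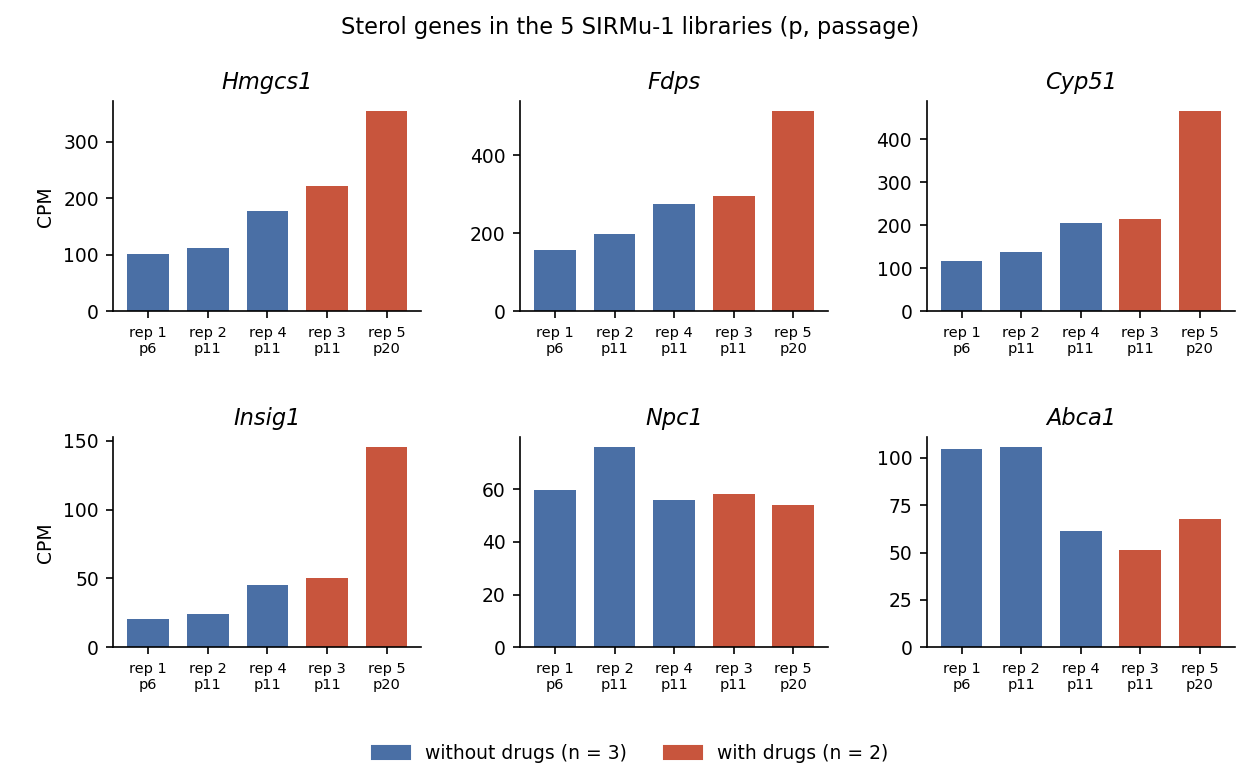
CPM of 6 sterol genes in each SIRMu-1 library (bars, 1 library each; blue without drugs, red with; p gives the passage). For Hmgcs1, Fdps, Cyp51 and Insig1 the drug-free replicate 4 stands close to the drug-treated replicate 3 and replicate 5 is highest, while Npc1 is nearly level and Abca1 is high in replicates 1 and 2.

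Some genes of sterol uptake and sensing leaned the same way. Insig1, which retains SREBP in the endoplasmic reticulum and is itself an SREBP target, stood at 20.3, 24.1 and 45.5 CPM without drugs and 50.6 and 145 with. Its log2 fold change was 1.71 ± 0.49, and the drug libraries lay above the others, replicate 3 by a narrow margin. Srebf2, which encodes SREBP-2, and Srebf1 had log2 fold changes of 0.81 ± 0.25 and 0.74 ± 0.23, and Stard4, a cytosolic sterol carrier, 1.38 ± 0.42. The list median was 0.45, and 0.12 without replicate 5. Srebf2, Srebf1 and Stard4 were among the 5 of 16 tested genes with an unadjusted edgeR p under 0.05, all higher, against 2.53% of all genes. Npc1, which exports cholesterol from lysosomes, stood apart from them at 59.7, 75.9 and 55.8 CPM against 58.0 and 54.2. The interval of Npc1, from -0.66 to 0.29, and that of its partner Npc2, from -0.16 to 0.69, both lay within 2-fold. Lrp1, a large endocytic receptor, was also bounded, from -0.85 to 0.36.

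Fatty acid genes that answer to SREBP-1 followed replicate 5. The median log2 fold change of 13 tested genes was 0.67, which dropped to 0.16 without replicate 5. An unadjusted edgeR p under 0.05 was reached by 7 of them, all higher, against 2.53% of all genes. Scd2, the main desaturase on the list, stood at 473, 535 and 929 CPM without drugs and 821 and 2020 with, so the drug-free replicate 4 exceeded replicate 3. Fads1, another desaturase, stood at 16.8, 9.22 and 49.0 CPM against 33.6 and 221. Sterol efflux and storage genes had a median of 0.14 over 14 genes. Abca1, the cholesterol exporter that oxysterols raise through LXR, stood at 105, 105 and 61.5 CPM without drugs and 51.4 and 67.5 with, and its log2 fold change of -0.61 ± 0.32 had an interval reaching 0.11.

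The sterol response element bound by SREBP was searched as TCACNCCAC on both strands in the same promoter windows. It was in none of the 17 sterol synthesis promoters or the 12 sterol uptake promoters with a sequence, and in 1.07% of those of all tested genes. The windows reach 250 bases back from the start, and no match says only that these letters are not there.

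Several stress programmes had median log2 fold changes near 0. Counts on the stress lists can be set against all genes tested. Of these, 2.53% were higher and 1.3% lower at an unadjusted edgeR p under 0.05, and 61.9% were bounded within 2-fold. For the unfolded protein response all 21 tested genes were bounded within 2-fold, with a median log2 fold change of -0.15 that ran from -0.23 to -0.07 when 1 SIRMu-1 library was left out. Hspa5, the main chaperone of the endoplasmic reticulum, stood at 2102, 1969 and 2337 CPM without drugs and 2074 and 1713 with, an interval from -0.59 to 0.25. The list held 2 genes at an unadjusted p under 0.05, both lower: Herpud1 at -0.51 ± 0.18 and Hyou1 at -0.46 ± 0.19. Heat shock genes had a median of -0.02 over 14 genes and none at that level. Hspa8, the constitutive chaperone, had a log2 fold change of 0.00 with an interval from -0.30 to 0.30. Hspa1a, the inducible form, was low at 15.7, 11.1 and 9.71 CPM against 11.0 and 5.32.

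Oxidative stress genes had a median log2 fold change of 0.01 over 26 genes, with none at an unadjusted p under 0.05 and 18 bounded within 2-fold. Hmox1, a heme oxygenase that NRF2 raises, stood at 234, 199 and 196 CPM without drugs and 218 and 157 with. Its interval, from -0.997 to 0.67, held no 2-fold rise. Metallothioneins bind zinc and copper. On their list of 4 tested genes, Mt2A and Mt1a were low but ordered. The zinc genes Slc30a1 and Mtf1 had log2 fold changes of 0.25 and -0.11. Mt2A stood at 1.46, 1.70 and 3.26 CPM without drugs and 5.04 and 9.85 with, and Mt1a at 0.782, 0.629 and 2.24 against 3.179 and 4.87. Their log2 fold changes were 1.797 ± 0.63 and 1.72 ± 0.62, with unadjusted edgeR p of 0.015 and 0.0176. As with the sterol genes, replicate 4 was the highest of the drug-free cultures.

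The integrated stress response slows translation when amino acids run short or proteins misfold. Its 28 tested genes had a median log2 fold change of -0.17, which was -0.05 without replicate 1 and also without replicate 3, with 2 at an unadjusted p under 0.05, both lower. Atf4, its central transcription factor, stood at 600, 582 and 595 CPM without drugs and 481 and 568 with, an interval from -0.47 to 0.12. Ddit3, the ATF4 target also called CHOP, stood at 93.9, 145 and 108 CPM against 86.2 and 112. Chac1, which degrades glutathione and is a target of ATF4, differed more, at 57.0, 67.1 and 82.4 CPM against 15.0 and 33.5. Both drug values of Chac1 lay below the 3 others, and the log2 fold change was -1.50 ± 0.37 with an interval from -2.32 to -0.68. Chac1 was among the 5 lowest p-values of the genes that were lower, at an unadjusted edgeR p of 0.00287, and was lower in replicate 3 than in replicates 1, 2 and 4 by 1.92, 2.15 and 2.45 on the log2 scale. In the 22 alternative fits its log2 fold change ran from -2.30 to -1.04. Chac1 was named for its low p in these same libraries, so its unchanged sign there is no separate support.

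ATF4 with CEBP partners binds CARE elements, searched here as TGATGNAA on both strands. Chac1 is shown because it had the lowest p on the list, with its match in capitals and on the opposite strand.
Chac1: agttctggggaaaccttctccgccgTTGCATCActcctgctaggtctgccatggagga
The stretch is chr3:126795939-126795996 on the plus strand of GRCr8, and the match lies 167 to 160 bases before the start. Of 22 promoters of this list with a sequence, 3 held a match (13.6%), those of Chac1, Trib3 and Pck2, against 1.77% of the promoters of all tested genes. On the unfolded protein response list 1 of 16 did, that of Herpud1.

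The p53 targets, which DNA damage raises, had a median log2 fold change of -0.27 over 24 genes, and a 2-fold rise lay outside the interval of 21. That median was -0.14 without replicate 5 and -0.16 without replicate 2. Cdkn1a, the cell cycle inhibitor p21, stood at 463, 670 and 337 CPM without drugs and 406 and 222 with, a log2 fold change of -0.64 ± 0.41. Gadd45a, a growth arrest gene, stood at 91.7, 98.1 and 47.5 CPM against 39.0 and 29.4. Its log2 fold change was -1.21 ± 0.31, with an unadjusted edgeR p of 0.00368, and replicate 3 lay below replicate 4 by only 0.28. Apoptosis regulators had a median of -0.01 over 18 genes, of which 14 were bounded. Of 21 inflammatory genes downstream of TLR2 and NF-kB, a receptor amphotericin B can engage, Il6 was lower and Cxcl12 higher at an unadjusted p under 0.05, and 6 were bounded, so this list was poorly resolved. Immediate early genes, which respond within minutes to many stimuli, had a median of -0.31 over 21 genes, with 1 higher and 2 lower at that level and 2 bounded. Single libraries decided that median, which was 0.01 without replicate 5 and -0.03 without replicate 1, and it was 0.14 with passage as a number. Fos, one of them, stood at 506, 334 and 349 CPM without drugs and 488 and 414 with. Amphotericin B can form pores that leak potassium. The 13 tested genes of ion pumps and the osmotic response had a median of -0.26, with none at an unadjusted p under 0.05 and 8 bounded. The median was -0.09 without replicate 5, -0.10 without replicate 2 and -0.49 without replicate 3. Atp2a2, a calcium pump of the endoplasmic reticulum, stood at 555, 538 and 581 CPM against 559 and 627.

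Outside the lists, replicate 5 was the highest library for the higher genes named here by p and the lowest for the lower ones. Snai1, a repressor of epithelial genes, stood at 61.7, 29.5 and 63.4 CPM without drugs and 146 and 344 with, a log2 fold change of 2.25 ± 0.48. Mat2a, which makes S-adenosylmethionine, stood at 176, 111 and 136 CPM against 209 and 482, and Mnt, a MAX partner that opposes MYC, at 38.1, 38.4 and 29.95 against 52.8 and 102. Lhfpl2 was 8.89, 9.28 and 10.5 CPM without drugs and 17.1 and 27.9 with. In all 4 genes replicate 3 lay between the drug-free cultures and replicate 5. Among lower genes, Edn1, which encodes endothelin-1, stood at 104, 218 and 41.6 CPM against 25.8 and 3.75, and Abcd4, a lysosomal transporter needed for vitamin B12, at 75.7, 111 and 44.3 against 39.2 and 19.6. Snap47, a SNARE protein gene, was 16.0, 19.5 and 14.8 CPM against 11.1 and 8.73. Each of these had an edgeR adjusted p of 0.977. The genes of this paragraph were named for their low p in these same libraries, so their order is no separate support.

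Replicates 2 and 3 share the passage, 11, and the name code and differ in the drugs, but that pair has 1 library an arm and no replicate check. Of 9735 genes with at least 50 counts over both, 539 (5.54%) were past 2-fold higher with drugs and 360 (3.7%) lower. The 31 tested genes of mitosis and replication were all higher in replicate 3, with a median log2 ratio of 1.68. Mki67, the proliferation marker Ki-67, was 38.9 CPM in replicate 2 and 226, 251, 173 and 317 in replicates 1, 4, 3 and 5. Replicate 2 was the lowest of the 5 libraries for all 31 genes, and in the other pair, replicate 5 against replicate 4, the median was 0.01. Over all 5 libraries the list median was 0.25, and -0.15 without replicate 2. Division genes therefore set replicate 2 apart from drug-free and drug-treated cultures alike. When the spread was taken from the other groups, edgeR called 0 genes between replicates 3 and 2, with a lowest adjusted p of 0.0621 and 765 genes at an unadjusted p under 0.05.

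The widest gaps of the pair told the same. Cdhr1, a photoreceptor cadherin, had 313 reads in replicate 2 and 27019 in replicate 3, but 977, 731 and 141 CPM in replicates 1, 4 and 5. Il1rl1, the receptor of interleukin-33, had 797 reads against 28574, and 1152 and 1022 CPM in the drug-free replicates 1 and 4. In the other direction Igfbp3, an IGF binding protein, had 4385 reads against 139, and 4.23 and 2.67 CPM in replicates 1 and 4. For each of these 3 genes replicate 3 was nearer to replicates 1 and 4 than replicate 2 was. Igf2 followed no order by drug, with 19.5 and 6.48 CPM in replicates 2 and 4, 0.605 in replicate 1, and 0.33 and 43.0 with drugs. Ptges, a prostaglandin synthase, was 8.22, 40.6 and 2.47 CPM without drugs and 1.65 and 2.25 with.

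Distances between all pairs of libraries placed the drug state beside other differences. The closest pair of the 10 was replicates 3 and 4, with and without drugs, of which 1.69% of genes were past 2-fold. Replicates 1 and 3, also of different drug state, followed at 2.26%, and the drug-free replicates 1 and 4 at 3.14%. Replicates 2 and 4, both drug-free at passage 11, differed for 12% of genes, more than the passage 11 pair with and without drugs (9.23%). Replicates 3 and 5, both with drugs, differed for 8.90%. Over the 6 pairs of different drug state the share ran from 1.69% to 18.5% with a median of 8.45%, and over the 4 pairs of the same state from 3.14% to 12% with a median of 9.41%.

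**Figure D4:**
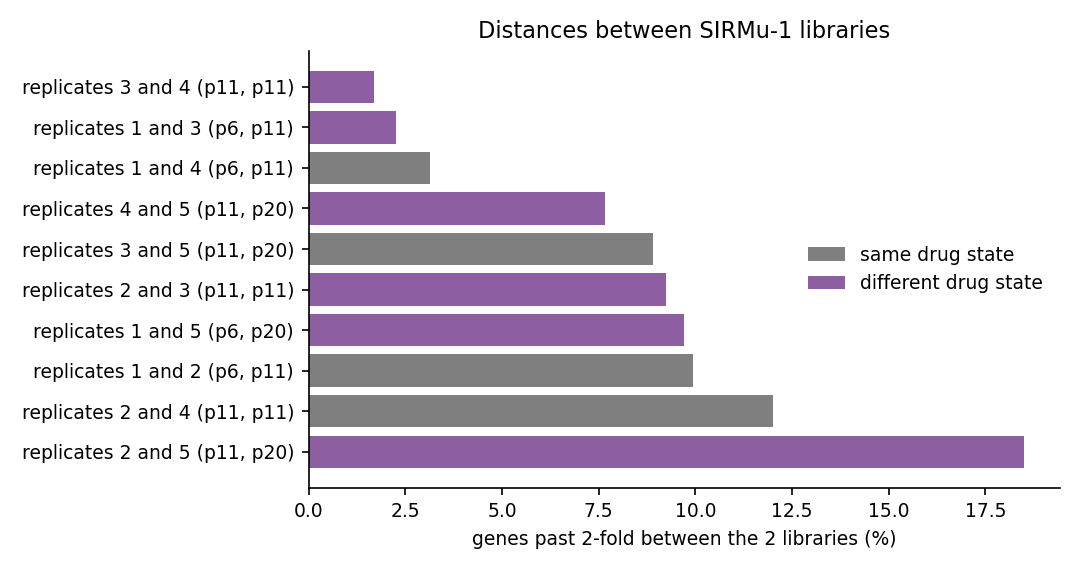
Percent of genes (at least 50 counts over both libraries) that differ by more than 2-fold between each pair of SIRMu-1 libraries, with passages (p) in brackets and bars coloured by whether the drug state is the same. The 2 smallest distances, 1.69% and 2.26%, are between a culture with drugs and one without, and the largest, 18.5%, joins replicates 2 and 5.

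Replicates 3 against 2 and 5 against 4 use 4 different libraries, so their agreement is not built in by a shared control. Over 10238 genes the log2 ratios of both pairs had a Pearson correlation of 0.085 and a Spearman correlation of 0.096, given as a description across genes. Genes past 2-fold higher in both numbered 101, which is 15.7% of the 643 in the first pair and 21.8% of the 463 in the second. Those past 2-fold lower in both numbered 100, 24.4% of 410 and 21.5% of 465. These pair totals are out of the same 10238 genes, so each share exceeded that over all genes. The overlap was not tested. Insig1 (1.07 and 1.67), Gpnmb (1.96 and 1.96), Chac1 (-2.15 and -1.30) and Lrp2 (-1.03 and -1.46) were past 2-fold in both pairs. Gpnmb and Chac1 were named for low p over these same libraries, which favours agreement of both pairs. Of the lists drawn below, sterol synthesis (0.51 and 0.91) and fatty acid synthesis (0.27 and 0.83) had medians on the same side in both pairs. So did the 4 tested metallothionein and zinc genes (0.93 and 0.62). Sterol uptake (0.01 and 0.43), heat shock (0.03 and 0.02) and the proton pump (-0.16 and -0.08) did too. The integrated stress response (-0.18 and -0.04) and p53 targets (-0.25 and -0.16) were also on 1 side. Cytosolic (0.11 and 0.07) and mitochondrial (-0.05 and -0.13) ribosomal genes and mitosis (1.68 and 0.01) likewise had medians on the same side. The unfolded protein response (0.08 and -0.31) and lysosomal membrane genes (-0.06 and 0.15) did not. Neither did lysosomal hydrolases, autophagy, sterol efflux and oxidative stress genes. A shared side was thus not particular to the sterol, fatty acid and metal lists, though several of the other medians were near 0.

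**Figure D5:**
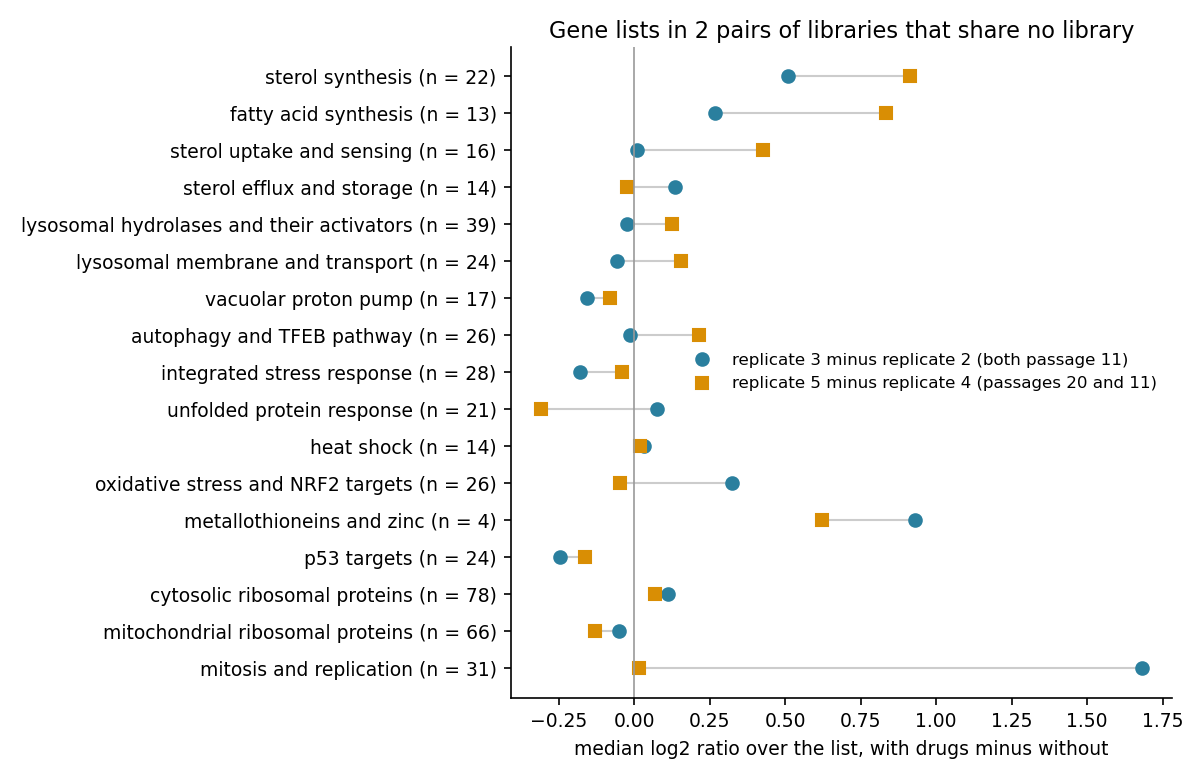
Median log2 ratio of each gene list (n, genes tested) in replicate 3 minus replicate 2 (circles) and replicate 5 minus replicate 4 (squares), each a culture with drugs minus one without. Sterol synthesis is at 0.51 and 0.91, the 4 lysosome lists lie between -0.16 and 0.21, and mitosis and replication is at 1.68 and 0.01.

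The labels give matching to the primary cultures as the reason for the drugs. Correlation of log2 CPM across genes with the mean of the 4 primary libraries was 0.877, 0.884 and 0.871 in the drug-free replicates 1, 2 and 4 and 0.879 and 0.859 in replicates 3 and 5. The drug arm averaged 0.869 and the drug-free arm 0.877 ± 0.0069 (SD, n = 3), a difference of -0.0085. The two-sided exact permutation test over the 5 libraries gave p = 0.6, where 0.2 is the smallest p the design allows. Within the code 4 libraries replicate 3 was 0.0014 below the mean of replicates 1 and 2, and within code 10 replicate 5 was 0.012 below replicate 4. Glul, the glutamine synthetase that marks Müller glia, stood at 52.7, 39.7 and 54.4 CPM without drugs and 49.2 and 87.7 with, an interval from -0.43 to 1.396, so a 2-fold rise stayed inside it.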

How the data were processed

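Polyadenylated RNA of 12 rat cultures was sequenced from stranded libraries. The submitters' processing notes list STAR 2.5.3a, cutadapt 1.8.1, edgeR 3.18.1 and genome build rn6, without their roles, the annotation or the strand setting. Per library, the authors deposited unnormalized read counts for 17315 genes. In SIRMu-1 57.1% to 61.1% of reads were in genes, and the rest, including 10.4% to 12% mapping to several places, was left out, so genes with near-identical copies are uncertain, as are overlapping genes on opposite strands.

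Counts were tested with edgeR 4.0.16 in R 4.3.3: TMM scaling, expression filter on the 3 cell kinds (11321 genes), quasi-likelihood fit of 4 groups over all 12 libraries (8 residual degrees of freedom), Benjamini-Hochberg adjustment, called under 0.05. Intervals (95%) are Wald intervals from the fitted weights and moderated variance, and can differ from the test near its threshold. They could not be given for 415 genes. Pair ratios used a prior count of 2. DESeq2 1.42.0, limma 3.58.1, other scalings, filters, terms and left-out libraries were alternatives. Mitochondrial DNA genes were not analysed here. RefSeq promoters (GRCr8) were matched by symbol for 8580 tested genes.

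Lists and members were chosen with earlier results of these data known. Named genes were 19 set genes, the 5 lowest p in each direction at a mean log2 CPM of at least 3, each list's 3 members of highest CPM, and the 5 highest and lowest ratios of the passage 11 pair with at least 200 counts. Some of these genes are not reported here. Others are said to be picked by their values.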

Additional observations from a re-analysis of the deposited data

How the results depend on the processing

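The count of 0 genes called was the same under other scalings, filters, limma-voom (379 genes at an unadjusted p under 0.05), the 5 libraries alone, passage or name code as a term. It was 4 with DESeq2 (lowest adjusted p 0.00501), and leaving out 1 library each gave 0 to 2, the 2 being Ptn and Gdpd2 without SIRMu-1 replicate 3, where 1481 genes had an unadjusted p under 0.05 against 690 without replicate 4, 271 without replicate 2 and 74 without replicate 5. With replicates 2 and 5 both left out, a choice made after seeing the data, it was 0, with 102 genes at that level. Genes bounded within 2-fold numbered 7179 by 2 one-sided tests with adjustment and 5267 to 7136 when 1 library was left out, and 2543 genes met the tighter bound of 0.5 on the log2 scale. The drug arm's difference in correlation with the primary cultures was -0.0014 within code 4 and ran from -0.019 to 0.0019 when 1 library was left out. For the passage 11 pair, 899 genes were past 2-fold and edgeR called 0 with pooled spread. Scaling by library totals moved the median of all genes to 0.06. With no gene called there was no call to reverse. Of 433 list and named genes, 178 had the same sign in every alternative that gave a value and 255 another sign in at least 1. No paired analysis was possible because the arms share no replicate number (3 and 5 against 1, 2 and 4). The name code, whose meaning is not given, holds both drug states under each value, and as a term it left 333 genes at an unadjusted p under 0.05. Intervals were widest for genes at a log2 CPM of 1 or less.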

Other observations

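Most ribosomal protein genes were bounded within 2-fold, as were 61.9% of all genes and 81.4% of those with a mean log2 CPM above 3. At the tighter bound of 0.5 on the log2 scale, 32 of 66 mitochondrial and 12 of 78 cytosolic ones were held, against 22.5% of all genes. All 66 tested genes for mitochondrial ribosomes, which resemble the bacterial target of gentamicin, were bounded within 2-fold, at a median of -0.07 on the log2 scale, and 12 of them were lower in both drug libraries than in the 3 others, as 7.26% of all genes were. Scaling by library totals moved that median to 0.01. The 78 tested genes of cytosolic ribosomes had a median of 0.11, with 69 bounded and 28 higher in both drug libraries than in the 3 others, as 8.72% of all genes were. Rps2 had the only unadjusted edgeR p under 0.05 on that list, at 612, 1003 and 828 CPM without drugs and 1252 and 1328 with, and its reads may be shared with near-identical copies.

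Among well measured genes past 2-fold the same way in both pairs of separate libraries, 4 were picked by their values. Tnc, the matrix glycoprotein tenascin C, was 469, 3744 and 581 CPM without drugs and 1119 and 58.4 with. F3, tissue factor, was 823, 2050 and 463 CPM against 664 and 130. In both genes replicate 2 was highest and replicate 5 lowest, and replicate 3 lay within the drug-free range. Cxcl12, a chemokine, was 148, 53.5 and 262 CPM against 144 and 873, with replicate 3 again within the drug-free range. Klf10, an early TGF-beta response gene, was 73.8, 17.7 and 33.3 CPM against 77.3 and 233, with both drug values above the others, replicate 3 by little.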
